A study of Schizosaccharomyces pombe with 6 samples.

Results

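The ribosomal stalk is the flexible arm of the large ribosomal subunit, and its proteins P0, P1 and P2 are encoded in fission yeast (Schizosaccharomyces pombe) by a small family of copied genes. The genes described here are rpp0 (SPCC18.14c) for P0, rpp101 (SPAC644.15), rpp102 (SPBC3B9.13c) and rpp103 (SPCP1E11.09c) for P1, and rpp202 (SPBC23G7.15c) and rpp203 (SPAC1071.08) for P2. They were chosen by identifier, and all 6 were found among the 7016 features of the deposited table. The reference annotation names a further P2 gene, rpp201 (SPBP8B7.06). It was not among the chosen genes, and its values are given beside them because the balance of the P2 copies cannot be read without it.

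RNA came from asynchronous, log-phase cultures in the rich medium YES. In the estradiol group, 3 libraries came from cultures given 1 µM beta-estradiol in ethanol for 3 h, and in the control group 3 libraries came from cultures given the vehicle. The series design calls each group a biological triplicate, the title speaks of an estradiol-inducible promoter, and the labels name no strain, activator or reporter that the groups share. Levels are FPKM, that is fragments scaled to gene length and to the mapped fragments of the library. Levels of different genes can thus be set side by side only roughly, since reads that fit several copies or overlapping genes may be counted to either. A comparison between libraries depends on how the libraries are scaled. Libraries are named 0, 1 and 2 within a group, as the table numbers its columns.

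P0, also called uL10, holds the stalk to the ribosomal RNA and carries P1–P2 heterodimers. All of these proteins end in a nearly identical acidic tail, which recruits and stimulates the GTPases of translation, among them the elongation factors eEF1A and eEF2. In budding yeast the P1 and P2 proteins also move between the ribosome and a cytoplasmic pool and are phosphorylated by the kinase CK2.

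The shared tail can be read in the genes. The last 42 coding bases, stop codon included, are shown for P0, for the P1 gene rpp101 and for the P2 genes rpp202 and rpp203, because they show how alike the copies are where the proteins meet the GTPases. The sequences are from RefSeq, assembly ASM294v3, coding strand, 5′ to 3′, on chromosomes III, I, II and I in the order given.
rpp0: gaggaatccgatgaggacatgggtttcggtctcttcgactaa
rpp101: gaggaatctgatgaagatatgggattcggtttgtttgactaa
rpp202: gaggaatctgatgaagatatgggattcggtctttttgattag
rpp203: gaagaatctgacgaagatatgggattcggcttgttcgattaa

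Over their whole coding sequences the copies can be told apart. Identity was taken over all positions of the coding alignment, gaps included. Among the P1 genes, rpp101 and rpp102 shared 83.5%, rpp101 and rpp103 shared 77.7%, and rpp102 and rpp103 shared 77.8%. Among the P2 genes, rpp203 shared 85.3% with rpp201, while rpp202 shared 73.8% with rpp201 and 71.7% with rpp203. The longest stretch of identical coding bases between any 2 of the 7 genes was 38 bases, in rpp101 and rpp201, against reads of 151 bases. How the authors' counting treated reads that fit more than one copy is not given in the sources used here.

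The copies of a class also share their intron position, and the classes differ in it. In the P1 genes the first intron followed 69 coding bases. In rpp202, rpp203 and rpp201 the only intron lay 24 coding bases before the end. rpp102 had both, with 69 coding bases in its first exon and 24 in its last, so it carries 2 introns where each of the other genes carries 1. P0, with 312 codons, is the longest product, and the P1 and P2 genes have 109 or 110 codons.

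**Figure D1:**
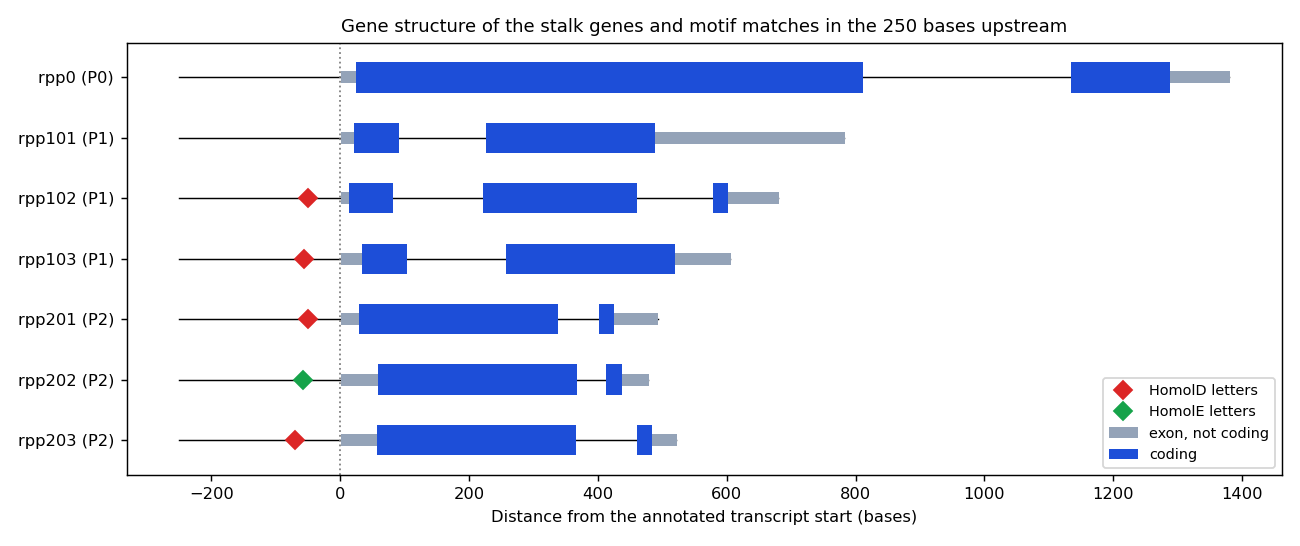
Gene structure of the 6 stalk genes and rpp201, drawn from the annotated transcript start in bases, with coding exons as tall bars, non-coding exon parts as low bars and introns as lines. Diamonds mark HomolD letters upstream of rpp102, rpp103, rpp201 and rpp203 and HomolE letters upstream of rpp202, all between 46 and 74 bases before the start.

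Promoters of S. pombe ribosomal protein genes often carry HomolD, an element that takes the place of a TATA box, and sometimes HomolE. The letters CAGTCACA (HomolD) and ACCCTACC (HomolE) were searched on both strands in the 250 bases before the annotated start, and no stalk gene held both. HomolD letters were present in 3 of 6 stalk genes and in rpp201, against 2.63% of 5104 protein-coding promoters and 64.1% of 131 other ribosomal protein promoters. HomolE letters were present in 1 of 6 stalk genes, rpp202, against 1.51% and 30.5% of the same promoters. The windows below show the match in capitals with its flanks, each on the strand of its gene, 5′ to 3′.
rpp102: gcaaataaaaCAGTCACActactttacaca
rpp103: agtattttcaCAGTCACAgaaagtttcgac
rpp203: cttgaaacgtTGTGACTGtctttttcgtaa
rpp201: actcgaaaacCAGTCACAaaagtttcgagt
rpp202: tataaagtagGGTAGGGTtatgactttcaa
On ASM294v3 these windows lie at chrII:4009430-4009459 (minus strand), chrIII:2408367-2408396 (minus), chrI:3869005-3869034 (plus), chrII:3643097-3643126 (plus) and chrII:2128509-2128538 (minus). In rpp203 the HomolD letters stand on the opposite strand to the gene, as do the HomolE letters in rpp202. No match to these letters was found in the windows of rpp0 and rpp101.

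A feature named GFP, which the labels do not describe as a reporter, separated the groups. GFP, the green fluorescent protein, was at 814, 775 and 553 FPKM in estradiol libraries 0, 1 and 2, against 131, 148 and 161 FPKM in control libraries 0, 1 and 2. The table holds no counts, so absolute depth is unknown. From the spacing of low values, the shallowest library, estradiol 0, had 0.688 of the depth of control library 0, and the deepest, control 1, had 1.3 times. Levels are relative to the whole library, so fewer transcripts per cell and a larger total of other RNA cannot be told apart.

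Stalk genes were lower with estradiol in 4 of 6 cases by the test across all genes. limma on log2(FPKM + 1), with Benjamini-Hochberg adjustment over 6166 tested genes and a threshold of 0.05, called rpp0, rpp101, rpp102 and rpp103 lower and no stalk gene higher. rpp202 and rpp203 were not called. All 6 passed the filter of a mean of at least 1 FPKM, which these abundant genes met in both groups. Of all tested genes 3.91% were called lower and 4.07% higher, and the median log2 change was -0.46 over the 6 genes and 0.02 over all tested genes. Of the 6 genes, 1 was called lower under quantile normalization and 1 after a correction for level (cyclic loess, which removes a trend of change with level between libraries). It was 0 without control library 0 or control library 1, 1 without estradiol library 1, 2 without estradiol library 0 or estradiol library 2, and 3 without control library 2.

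The P0 gene fell, with the lowest adjusted p of the 6. rpp0 was at 850, 746 and 815 FPKM in estradiol libraries 0, 1 and 2, against 1263, 1233 and 1124 FPKM in control libraries 0, 1 and 2. Every estradiol library lay below every control library, with the highest estradiol value well short of the lowest control value. The means were 803 ± 52.9 FPKM with estradiol and 1207 ± 73.2 FPKM in controls (SD, n = 3 each), which makes a log2 change of -0.59 (SE 0.08, limma adjusted p = 0.0123). That is 0.666 times the control level, with a 95% interval of 0.584 to 0.759. rpp0 kept its call under all 10 other ways of scaling, filtering or fitting that used every library, with log2 changes of -0.61 to -0.29. The call was lost without control library 0 or control library 1, where the highest adjusted p was 0.0583.

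The P1 genes all fell, and the sizes of their changes were not tested against each other. rpp102 was at 501, 598 and 669 FPKM in the estradiol libraries, against 914, 864 and 934 FPKM in the controls. The groups did not overlap, and the estradiol libraries were spread wider than the controls. Its log2 change was -0.63 (SE 0.11, limma adjusted p = 0.0215).

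rpp103 was at 623, 706 and 576 FPKM with estradiol, against 977, 941 and 799 FPKM in controls. Here too the groups stayed apart, and library 2 was the lowest of both groups. The log2 change was -0.51 (SE 0.11, limma adjusted p = 0.0352). rpp101, the P1 gene with the lowest level, was at 300.5, 344 and 325 FPKM with estradiol, against 429, 405 and 383 FPKM in controls. Its change was the smallest of the P1 genes, at -0.33 on the log2 scale (SE 0.07, limma adjusted p = 0.0454), again with no overlap.

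These P1 calls rest on the full set of libraries. That of rpp101 was lost when any library was left out (highest adjusted p = 0.135), that of rpp103 without any but control library 2 (0.119), and that of rpp102 without any control library or estradiol library 1 (0.0764). Under quantile normalization the log2 changes of rpp101, rpp102 and rpp103 were -0.14, -0.40 and -0.29, none of them called by limma (adjusted p = 0.315, 0.119 and 0.153). All 3 calls were also lost after the correction for level, and those of rpp101 and rpp103 with no filter, with no intensity trend and when scaled to genes outside the ribosomal protein lists.

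**Figure D2:**
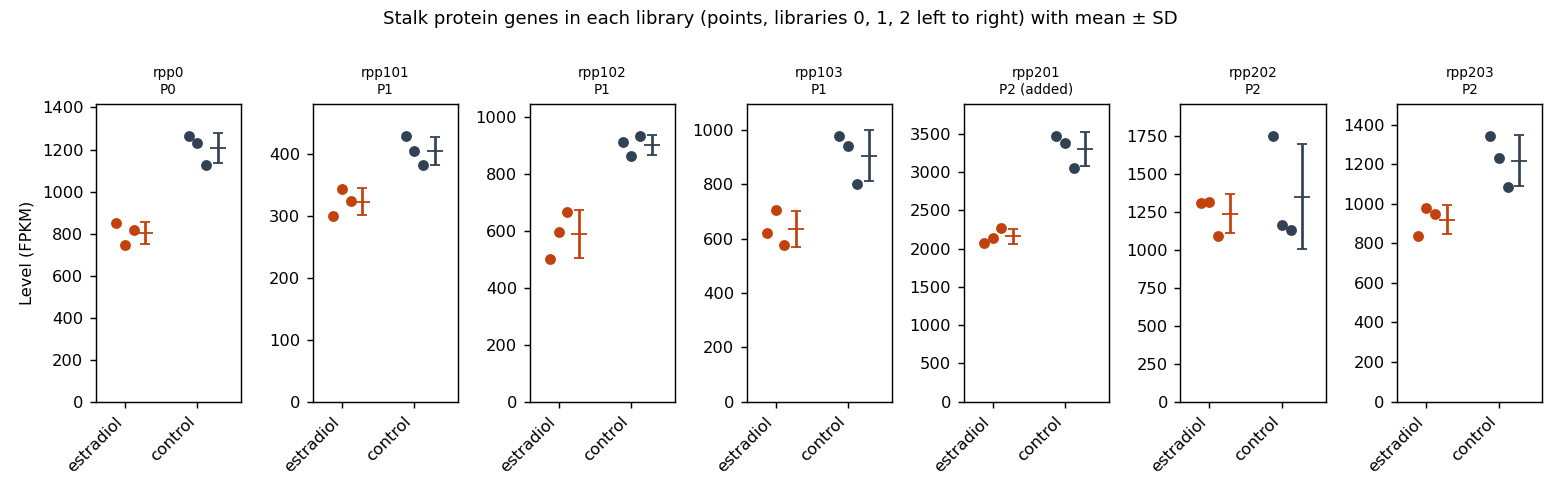
Level in FPKM of each stalk gene and of rpp201 in the 3 estradiol libraries (orange, left) and the 3 control libraries (dark, right), with mean ± SD beside the points and axes starting at 0 with a scale of their own. The estradiol points lie below all control points in every panel except rpp202, where control library 0 at 1751 FPKM stands above the other 5 libraries.

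Neither of the chosen P2 genes was called. rpp202 was at 1312, 1319 and 1090 FPKM with estradiol, against 1751, 1168 and 1133 FPKM in controls. Control library 0 stood above the other 2 controls, and estradiol libraries 0 and 1 lay above both of these, so the groups overlapped. The log2 change was -0.10 with a 95% interval of -0.52 to 0.33 (limma adjusted p = 0.781). That interval holds the changes of rpp101 and rpp103 and not that of rpp102. Without control library 0 it was 0.10, under quantile normalization 0.20 and after the correction for level 0.18, none of them called.

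rpp203 was at 835, 977 and 947 FPKM with estradiol, against 1341, 1229 and 1085 FPKM in controls. The groups did not overlap, although the gap between the nearest libraries was small. Its log2 change was -0.40 with a 95% interval of -0.65 to -0.16, and it missed the threshold with a limma adjusted p of 0.0610. With the column number as a replicate block the limma adjusted p was 0.0480, and without control library 2 it was 0.0476. No other alternative run called it. Under quantile normalization the log2 change was -0.11 (limma adjusted p = 0.463), and after the correction for level it was -0.14 (0.412). Leaving out 1 library gave adjusted p up to 0.1625.

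The P2 gene outside the chosen set was called lower. rpp201 was at 2076, 2144 and 2269 FPKM with estradiol, against 3467, 3382 and 3049 FPKM in controls, with a wide gap between the groups. Its log2 change was -0.61 (SE 0.08, limma adjusted p = 0.0126), close to that of rpp0. The call was lost without control library 0, control library 1 or estradiol library 1 (highest adjusted p = 0.0617), and after the correction for level (log2 change -0.28, adjusted p = 0.0723). Counting libraries alone, 5 of the 6 chosen genes had all estradiol libraries below all controls, as did 14% of all tested genes.

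The order of levels differed little between the groups. In estradiol libraries the means ran from rpp201 at 2163 FPKM through rpp202 (1240), rpp203 (920), rpp0 (803), rpp103 (635) and rpp102 (589) to rpp101 at 323 FPKM. The ranges of rpp203 and rpp0 overlapped there, as did those of rpp103 and rpp102. In control libraries the order was the same, from rpp201 at 3299 FPKM to rpp101 at 406 FPKM, but rpp202, rpp203 and rpp0 overlapped with their neighbours, and rpp103 and rpp102 averaged 906 and 904 FPKM. By control mean, rpp201 ranked 20 among 4903 tested protein-coding genes, rpp202 ranked 123, and rpp101, the lowest of the 7, ranked 303. The annotated genes are short, from 478 bases for rpp202 to 1380 for rpp0.

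Among the P1 copies, the share of rpp101 was higher in every estradiol library than in every control. Its share of the summed P1 level was 21.1%, 20.9% and 20.7% in estradiol libraries 0, 1 and 2, against 18.5%, 18.3% and 18.1% in control libraries 0, 1 and 2. Within each group the spread was far smaller than the gap, with means of 20.9 ± 0.183% and 18.3 ± 0.204% (SD, n = 3 each). The exact permutation test gave a 2-sided p of 0.1, the smallest that 3 against 3 libraries allow, and 0.333 after Benjamini-Hochberg adjustment over the 5 copy shares tested. Shares within a sum depend on each other, and those of rpp202 and rpp203 mirror each other, so the 5 are not independent tests.

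The other P1 shares overlapped between the groups. rpp102 held 35.2%, 36.3% and 42.6% with estradiol, against 39.4%, 39.1% and 44.1% in controls (exact permutation p = 0.4). rpp103 held 43.7%, 42.8% and 36.7% with estradiol, against 42.1%, 42.6% and 37.8% in controls (exact permutation p = 0.8). Library 2 of either group had the highest rpp102 share and the lowest rpp103 share. Between libraries of the same column number, estradiol minus control, the rpp102 share differed by -4.18, -2.85 and -1.51 percentage points, and the rpp103 share was higher in 2 pairs and lower in 1. The rpp102 share was thus lower with estradiol in 3 of 3 pairs and the rpp101 share higher in 3 of 3, by 2.57 to 2.63 points. An exact sign-flip permutation test over 3 pairs, added after the values were seen, cannot go below 0.25, the value it gave for both.

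Among the P2 copies, the share of rpp201 was lower in every estradiol library than in every control. With rpp201 included, which was decided after its values were seen, rpp201 held 49.2%, 48.3% and 52.7% of the summed P2 level with estradiol, against 52.9%, 58.5% and 57.9% in controls. The nearest libraries of the groups lay close together (exact permutation p = 0.1). rpp202 held 31.1%, 29.7% and 25.3% with estradiol, against 26.7%, 20.2% and 21.5% in controls, where control library 0 overlapped the estradiol range (exact permutation p = 0.2). rpp203 stayed between 19.8% and 22.0% in all 6 libraries. Of the sum of rpp202 and rpp203 alone, rpp202 held 57.4 ± 3.79% with estradiol and 52.2 ± 4.05% in controls (SD, n = 3 each; exact permutation p = 0.2, adjusted 0.333). Paired by column number, that share was higher with estradiol in 3 of 3 pairs, by 4.48, 8.70 and 2.43 percentage points (exact sign-flip permutation p = 0.25).

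**Figure D3:**
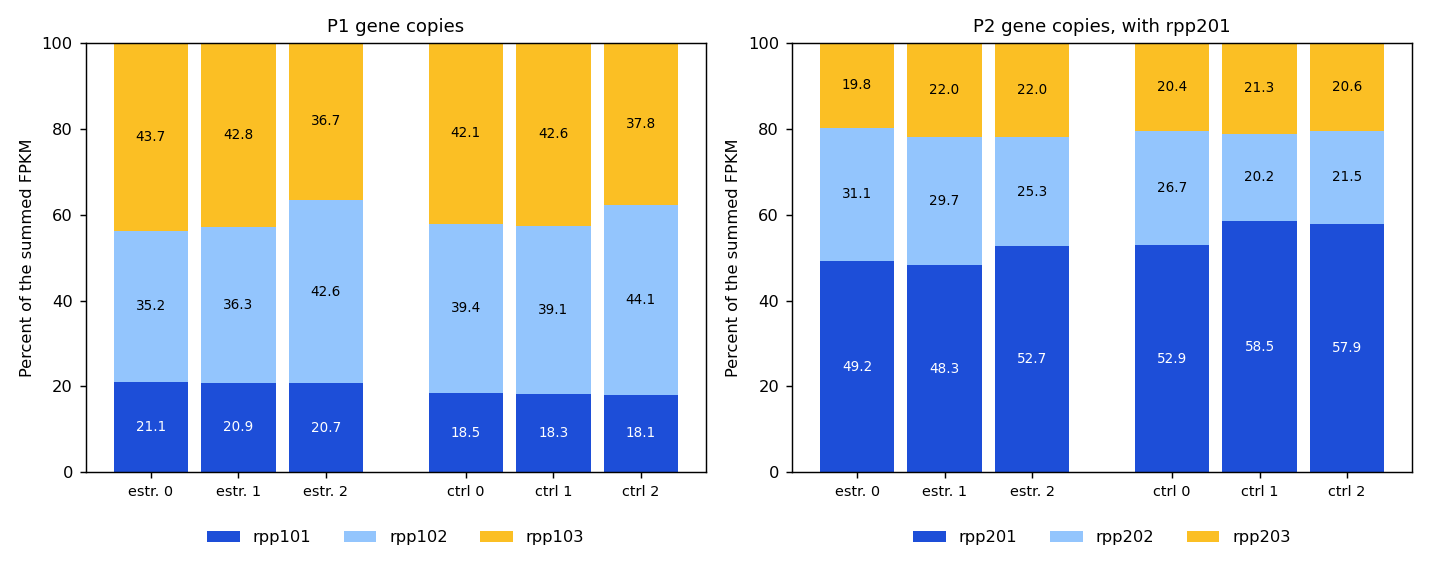
Percent of the summed FPKM held by each P1 copy (left) and each P2 copy with rpp201 (right), 1 bar per library, estradiol libraries left of control libraries. rpp101 holds 20.7 to 21.1% with estradiol and 18.1 to 18.5% in controls, and rpp201 holds 48.3 to 52.7% with estradiol and 52.9 to 58.5% in controls.

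Set against P0, the P1 sum overlapped between the groups. The summed P1 level was 1.68, 2.21 and 1.93 times that of rpp0 in estradiol libraries 0, 1 and 2, against 1.84, 1.79 and 1.88 times in the controls, and the ranges overlapped. For all 3 P2 genes the ratio to rpp0 was 4.97, 5.95 and 5.29 with estradiol, against 5.19, 4.69 and 4.69 in controls, again overlapping. Without rpp201 the P2 ratio was 2.53, 3.08 and 2.50 with estradiol, against 2.45, 1.94 and 1.97 in controls, and these did not overlap. The P1 sum was 0.337, 0.371 and 0.364 of the 3-gene P2 sum with estradiol, against 0.354, 0.382 and 0.402 in controls. These ratios are of RNA and say nothing of protein.

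Other ribosomal protein genes were called lower and none higher. Of 76 other large-subunit genes 35 were called lower and 0 higher, with a median log2 change of -0.38, and of 55 small-subunit genes 22 were called lower and 0 higher, with a median of -0.36. Among these 131 genes, 6 had a larger fall than rpp102, 7 than rpp0, 15 than rpp103, 57 than rpp203, 87 than rpp101 and 130 than rpp202. Those counts rest on the full set of libraries: without control library 0 they were 4 large-subunit and 3 small-subunit genes, without control library 1 they were 3 and 3, without estradiol library 1 they were 6 and 3, and without estradiol library 2 they were 8 and 5. Without estradiol library 0 they were 27 and 13, and without control library 2 they were 48 and 32. The replicate block gave 55 and 43, and quantile normalization 6 and 2. After the correction for level the medians were -0.21 for the stalk genes, -0.10 for the large subunit and -0.08 for the small subunit, and 1, 8 and 2 genes were called lower. The largest falls were those of rpl1603 (-0.95) and rpl102 (-0.86) in the large subunit and of rps2202 (-1.58) and rps1401 (-1.16) in the small subunit, all called. The smallest were those of rpl3702 (-0.11), rpl39 (-0.02), rps1902 (-0.22) and rps27 (-0.13), none called.

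**Figure D4:**
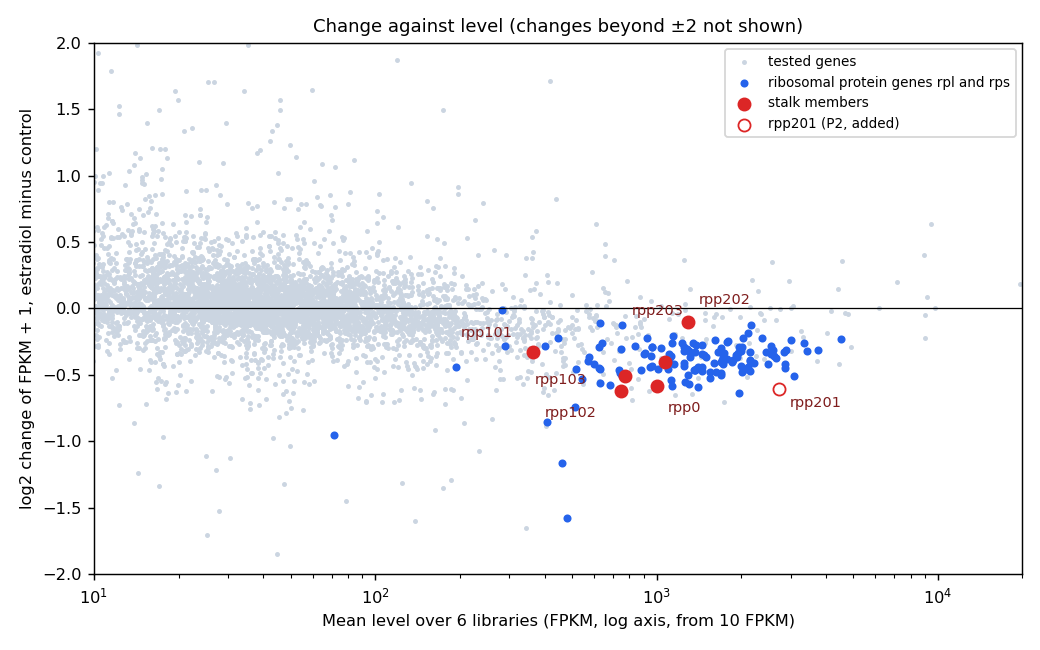
log2 change of FPKM + 1, estradiol minus control, against mean level over the 6 libraries (log axis) for tested genes (grey), ribosomal protein genes (blue), the 6 stalk genes (red) and rpp201 (open). The changes of the stalk genes lie within the range of the ribosomal protein genes, from -0.63 for rpp102 to -0.10 for rpp202. rpp202 lies at the edge of that range, where 130 of 131 other ribosomal protein genes had a larger fall.

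Both genes of the stalk's base protein fell. rpl1201 and rpl1202 encode uL11, which sits beside P0 on the ribosome. rpl1201 was at 505, 477 and 552 FPKM with estradiol, against 716, 674 and 659 FPKM in controls, and rpl1202 at 543, 568 and 573 FPKM with estradiol, against 703, 702 and 651 FPKM in controls. Both were called lower, with log2 changes of -0.42 (limma adjusted p = 0.0219) and -0.29 (0.0354). They lost their calls without control library 0, control library 1 or estradiol library 1, rpl1202 also without estradiol library 0 or 2 (highest adjusted p = 0.0837 and 0.128), and both under quantile normalization (0.0952 and 0.385) and after the correction for level (0.167 and 0.565).

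mrt4 encodes a nuclear relative of P0 that holds its place on the maturing subunit in budding yeast. It was at 275, 311 and 317 FPKM with estradiol, against 251, 291 and 255 FPKM in controls, and was not called (log2 change 0.18, limma adjusted p = 0.234). Its groups overlapped.

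Of the 8 listed genes of elongation, release and rescue factors, 1 was called lower and 0 higher, with a median log2 change of -0.13. eft202, an eEF2 gene, was at 638, 630 and 614 FPKM with estradiol, against 767, 778 and 712 FPKM in controls (log2 change -0.26, limma adjusted p = 0.0489). The call was lost without any library but control library 2 (highest adjusted p = 0.159). With all libraries it was lost under quantile normalization (log2 change -0.06, adjusted p = 0.550), after the correction for level (-0.03, 0.790), when scaled to genes outside the ribosomal protein lists and with no intensity trend. The other eEF2 gene, eft201, had -0.17 (adjusted p = 0.137). For the eEF1A genes, tef101 had -0.33 (adjusted p = 0.0706), tef102 -0.13 (0.302) and tef103 -0.04 (0.839). After the correction for level tef103 was called higher, at 0.33 (adjusted p = 0.0332). These elongation factor genes are near-identical copies whose reads can be split between them. tef3, for the ATPase eEF3, had -0.09 (0.572), sup35, for the release factor eRF3, -0.12 (0.204) and hbs1, for a ribosome rescue GTPase, 0.16 (0.297).

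No call was made among regulators tied to the stalk. The stalk activates the kinase Gcn2 in budding yeast and in mammals. Of the 4 genes of that pathway 0 were called, from gcn2 at -0.11 (limma adjusted p = 0.358) to the transcription factor gene fil1 at 0.04 (0.703), with gcn1 and gcn20 between them. Of the 3 CK2 subunit genes 0 were called, with log2 changes of 0.03 to 0.06. Ribonuclease P genes of similar name are no part of the stalk, and of rpp1, rpp21 and rpp40 0 were called, with 0.02, -0.35 and 0.10. At an unadjusted limma p under 0.05, 1 of these 10 genes, rpp21, would have passed. With the replicate block rpp21 was called lower (adjusted p = 0.0292), as was tef101 (0.0437).

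**Figure D5:**
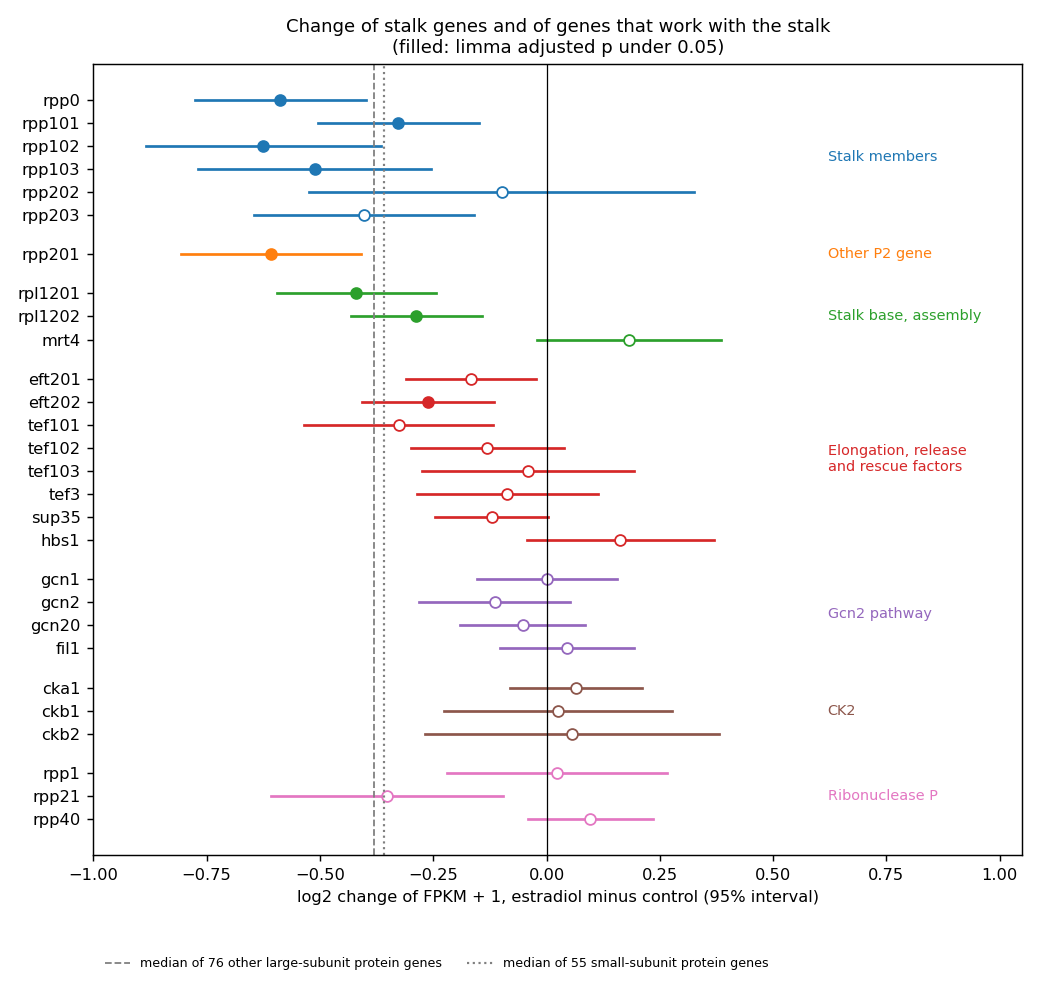
log2 change of FPKM + 1, estradiol minus control, with its 95% interval for the stalk genes, rpp201 and the other listed genes. Filled points have a limma adjusted p under 0.05. Dashed and dotted lines give the medians of 76 other large-subunit genes (-0.38) and 55 small-subunit genes (-0.36), and rpp202 has the widest interval among the stalk genes.

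Of the genes next to the stalk genes described here, 1 was called. trm82, which encodes a subunit of a tRNA methyltransferase, lies 170 bases beyond the 3′ end of rpp0 on the other strand. It was at 77.0, 81.6 and 89.0 FPKM with estradiol, against 54.4, 64.5 and 56.4 FPKM in controls, and was called higher (log2 change 0.49, limma adjusted p = 0.0231). That call was lost without control library 0, control library 2, estradiol library 1 or estradiol library 2 (highest adjusted p = 0.0839). mrpl9, ctf1, mrpl3 and nsa2 were not called, with log2 changes of 0.03 to 0.16.

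The kit does not mark strand, and 3 stalk genes overlap another gene of the table, so reads from the overlaps cannot be assigned by strand. trs23 overlaps rpp102 by 113 bases and ran from 42.2 to 58.5 FPKM with estradiol and from 43.5 to 53.6 FPKM in controls. SPBC23G7.14 overlaps rpp202 by 143 bases and ran from 34.8 to 37.7 FPKM with estradiol and from 37.7 to 45.6 FPKM in controls. SPAC1071.09c overlaps rpp203 along all of its 522 bases and ran from 17.8 to 18.5 FPKM with estradiol and from 19.8 to 25.3 FPKM in controls. These levels are far below those of the stalk genes they overlap, and none of the 3 was called. The reference also places long non-coding RNA genes that the table lacks on the strand opposite to stalk genes. SPNCRNA.7572 overlaps rpp0 by 225 bases, SPNCRNA.6389 overlaps rpp102 by 114 bases and SPNCRNA.7750 overlaps rpp103 along all of its 605 bases. Their levels are unknown, and reads from them could not be told from those of the stalk genes by strand.

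The genes whose profile over the 6 libraries was most like that of rpp0 were vrs1 for valyl-tRNA ligase, lys12 of lysine synthesis, and the small-subunit genes rps1001, rps602 and rps403. Pearson's r of log2(FPKM + 1) was 0.997 to 0.999 over 6 libraries. Most like the mean profile of the P1 and P2 genes were mpc2, rps23, sac11, ppn1 and rid1, with r of 0.984 to 0.991. These are descriptions of 6 points that fall into 2 groups, picked from all tested genes. vrs1 averaged 291 ± 13.3 FPKM with estradiol and 405 ± 21.8 FPKM in controls (SD, n = 3 each), while mpc2 averaged 38.5 ± 0.504 FPKM with estradiol and 40.4 ± 0.888 FPKM in controls. The log2 change of mpc2 was -0.07 (limma adjusted p = 0.501), since r does not depend on the size of a change.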

How the data were processed

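RNA was depleted of ribosomal RNA and made into TruSeq libraries for paired-end MiSeq reads of 151 bases, per the labels' protocols, with a kit that keeps no strand information. The authors deposited 1 table of FPKM values, with replicates kept apart. Per the submitters' processing notes, the tools included CASAVA 1.4, TopHat2 and Cuffdiff. Their roles, the genome build and whether libraries were scaled to each other: not given in the sources used here. The condition in the column names was matched to the sample titles. Column numbers could not be tied to the labels' replicate numbers.

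Of 7016 features, 6166 with a mean of at least 1 FPKM entered the main test: limma (version 3.58.1, R 4.3.3), applied to log2(FPKM + 1) with trended variance, no covariate and 2-sided p-values. The fit was also run on data simulated from its own means and variances. Recovery at changes as small as those of the stalk genes is not given here. A fold change is on that scale. Shares were compared by exact permutation over 20 splits. Gene names and sequences came from ASM294v3, to which 6845 identifiers matched; 4 of 26 listed symbols did not match. Coordinates are those of that assembly, since the table holds none. Alignments used Biopython 1.88.

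Deviations from group means correlated at 0.152, 0.212 and 0.146 between estradiol and control libraries of the same column number, so that number was used as a replicate block in an alternative fit. What libraries of a number share is not stated.

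The genes and lists were chosen with earlier results of these data known. The text names the 6 genes, rpp201, GFP, the lists described, the next gene on either side of each stalk gene (1 is not reported here), the 2 most and 2 least changed genes of each ribosomal subunit, and the 5 most similar profiles. The fit was repeated with other scalings, pseudocounts and filters, without the trend, with the block and without each library in turn. Adding rpp201 to the P2 shares, and pairing the shares by column number, were chosen after seeing the data.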

Additional observations from a re-analysis of the deposited data

How the results depend on the processing

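The direction of each stalk gene was the same under every alternative run except for rpp202. Genes called higher numbered 144 under quantile normalization and 506 with the replicate block. Genes called lower numbered 108 under quantile normalization, 109 after the correction for level and 524 with the block. Leaving out 1 library gave 49 to 242 genes higher, 37 to 207 lower and 0 to 3 stalk genes lower. Stalk genes called lower numbered 2 with no filter, 1 under quantile normalization, 1 after the correction for level, 2 when scaled to genes outside the ribosomal protein lists and 2 with no intensity trend. With the replicate block, pairing libraries by column number, 5 stalk genes were called lower. Pairing cannot change the mean share differences, since the mean of the paired differences equals the difference of the group means. The cause of these shifts was not tested.

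The difference in the rpp101 share, 2.60 percentage points, was 2.19 under quantile normalization and 1.99 after the correction for level. That of rpp203, -5.20, was 0.489 with rpp201 in the sum. After the correction for level tef103 had a log2 change of 0.33. Leaving out 1 library gave differences of 2.49 to 2.70 for the rpp101 share, -5.14 to -1.22 for rpp102 and -1.27 to 2.46 for rpp103. For the rpp202 share it gave 3.33 to 7.44, which the rpp203 share mirrors at -7.44 to -3.33. For the ratios it gave -0.035 to 0.232 (P1 over P0), 0.392 to 0.744 (P2 over P0, without rpp201) and -0.221 to -0.119 (P1 over P2, without rpp201). The table gives no counts, so depth sets no interval here.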
